A study of Homo sapiens with 3 samples.

Results

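The calpain genes and the gene of their inhibitor calpastatin were followed on 3 Affymetrix PrimeView expression arrays of FaDu cells, a cell line established from a hypopharyngeal squamous cell carcinoma. The 8 members are CAPN1, CAPN2, CAPNS1, CAST, CAPN5, CAPN7, CAPN10 and CAPN15. Their 33 probe sets are all those that name 1 of these genes and no other, out of 44988 probe sets that name 1 gene and 18132 genes. One array held RNA of cells kept for 48 h with 10 µg/ml of NSC-631570, an extract of greater celandine (Chelidonium majus) given at what the submitters call its EC50 dose. The other 2 arrays held RNA of untreated FaDu cells, kept for 48 h with distilled water in place of the extract, and are called untreated 1 and untreated 2. The study asked how the extract changes gene expression in this line. All values are deposited log2 signals, and a difference of 1 on that scale is a 2-fold difference in signal. The 8 genes were proposed after results of this comparison were known, with the low CAPN1 signal of the treated array among them, so their differences are described and not tested. The treated condition has 1 array and therefore no spread of its own, and the labels do not say whether the untreated arrays came from separate cultures.

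Calpains are cysteine proteases of the cytoplasm that need calcium and that cut their substrates at few sites, so that a protein is altered rather than broken down. The classical enzymes are pairs of a large catalytic subunit, encoded by CAPN1 (calpain-1, or µ-calpain) or CAPN2 (calpain-2, or m-calpain), and the small regulatory subunit encoded by CAPNS1. Calpastatin, encoded by CAST, binds and blocks both pairs and leaves most other calpains free. In epithelial cells the classical calpains are known for cutting proteins of focal adhesions and of the cytoskeleton during migration. The other members lack the calcium-binding domain that pairs with the small subunit: CAPN5 is the relative of nematode TRA-3, CAPN7 of fungal PalB, CAPN15 of the small optic lobes protein of Drosophila, and CAPN10 was linked to diabetes in genetic studies.

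The DNA in front of 4 of these genes is shown because their signals differed in direction: CAPN1 and CAPNS1 were lower in the treated array on every probe set, CAPN2 was mixed, and CAPN10 was higher on its brightest probe sets. Each line gives the 250 bases before the most upstream start listed for the gene, from RefSeq on GRCh38.p14, 5′ to 3′, with GC boxes (GGGCGG on either strand) in capitals.
CAPN1, chr11:65181123-65181372, strand +: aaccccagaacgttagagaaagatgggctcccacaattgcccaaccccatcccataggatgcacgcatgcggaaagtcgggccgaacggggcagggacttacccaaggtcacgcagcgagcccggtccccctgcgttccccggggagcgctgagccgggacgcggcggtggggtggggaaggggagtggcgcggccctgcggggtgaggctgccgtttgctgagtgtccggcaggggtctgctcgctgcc
CAPNS1, chr19:36139816-36140065, strand +: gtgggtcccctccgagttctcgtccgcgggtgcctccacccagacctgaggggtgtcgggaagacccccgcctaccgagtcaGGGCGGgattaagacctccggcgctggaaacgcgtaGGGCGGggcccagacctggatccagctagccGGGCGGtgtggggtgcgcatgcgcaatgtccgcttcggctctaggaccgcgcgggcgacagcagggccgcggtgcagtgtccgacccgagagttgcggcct
CAPN2, chr1:223701347-223701596, strand +: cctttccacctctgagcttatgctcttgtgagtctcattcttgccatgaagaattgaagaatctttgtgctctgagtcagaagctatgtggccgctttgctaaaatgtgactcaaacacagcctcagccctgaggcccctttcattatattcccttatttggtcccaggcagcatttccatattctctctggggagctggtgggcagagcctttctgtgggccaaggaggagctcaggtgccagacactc
CAPN10, chr2:240586484-240586733, strand +: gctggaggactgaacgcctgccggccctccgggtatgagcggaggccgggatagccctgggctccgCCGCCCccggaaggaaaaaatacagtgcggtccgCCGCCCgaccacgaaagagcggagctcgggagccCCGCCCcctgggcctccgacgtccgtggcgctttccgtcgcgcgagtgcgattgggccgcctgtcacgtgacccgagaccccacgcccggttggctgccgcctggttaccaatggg

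RefSeq start windows were found for 7 of the 8 genes, 15 windows in all. A GC box lay in 11 of the 15 windows, against 42.6% of all 35116 windows of the same length. The CAPN1 window shown holds 0 GC boxes, but the other CAPN1 windows, before later starts, hold 1 and 5. The AhR core motif GCGTG, searched on both strands, lay in 7 windows, against 32.2% of all windows. The CAPN1 window shown holds 2 copies, and the other CAPN1 windows hold 1 and 0. A CAST window holds 4, the second CAPNS1 window 3 and the CAPN7 window 2, so the copies are not particular to CAPN1. CCAAT lay in 6 windows (32% of all) and TATAAA in 1, a CAST window (10.7% of all). Hits of different motifs overlapped once. The CAPN2 window shown has 50% G and C and 1 CpG, while the other CAPN2 window, before a later start, has 78.8% G and C and 37 CpGs. Windows of 1 gene can overlap and several members are rich in G and C (median 70.4%, against 58% in all windows), so these counts describe the letters and say nothing of binding.

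Of the 33 member probe sets, 28 passed a filter that left out sets with a mean signal under 5.85, which is the 40th percentile over the whole array. The filter does not detect expression, because background estimates were not used here. The 5 sets that did not pass were both sets of CAPN5, 2 of CAPN10 and 1 of CAST. Nearest to the filter were 2 sets of CAPN10, one inside it with a mean of 6.08 over the 3 arrays and one outside it with a mean of 5.64.

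The treated array was below both untreated arrays in 12 of the 28 sets and above both in 10, and lay between them in 6. Among all 27249 probe sets past the filter, 34.5% were below both and 40.7% above both, so the members as a group sit near the background. Their median difference from the untreated mean was 0.03, the same as the 0.03 of all probe sets past the filter. One member set, of CAPN1, was at least 1.5-fold below both untreated arrays, where 6.77% of all sets were, and none was at least 1.5-fold above both, where 4.15% were. The values are therefore described below gene by gene and set by set, and a split between the genes was not tested.

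**Figure D1:**
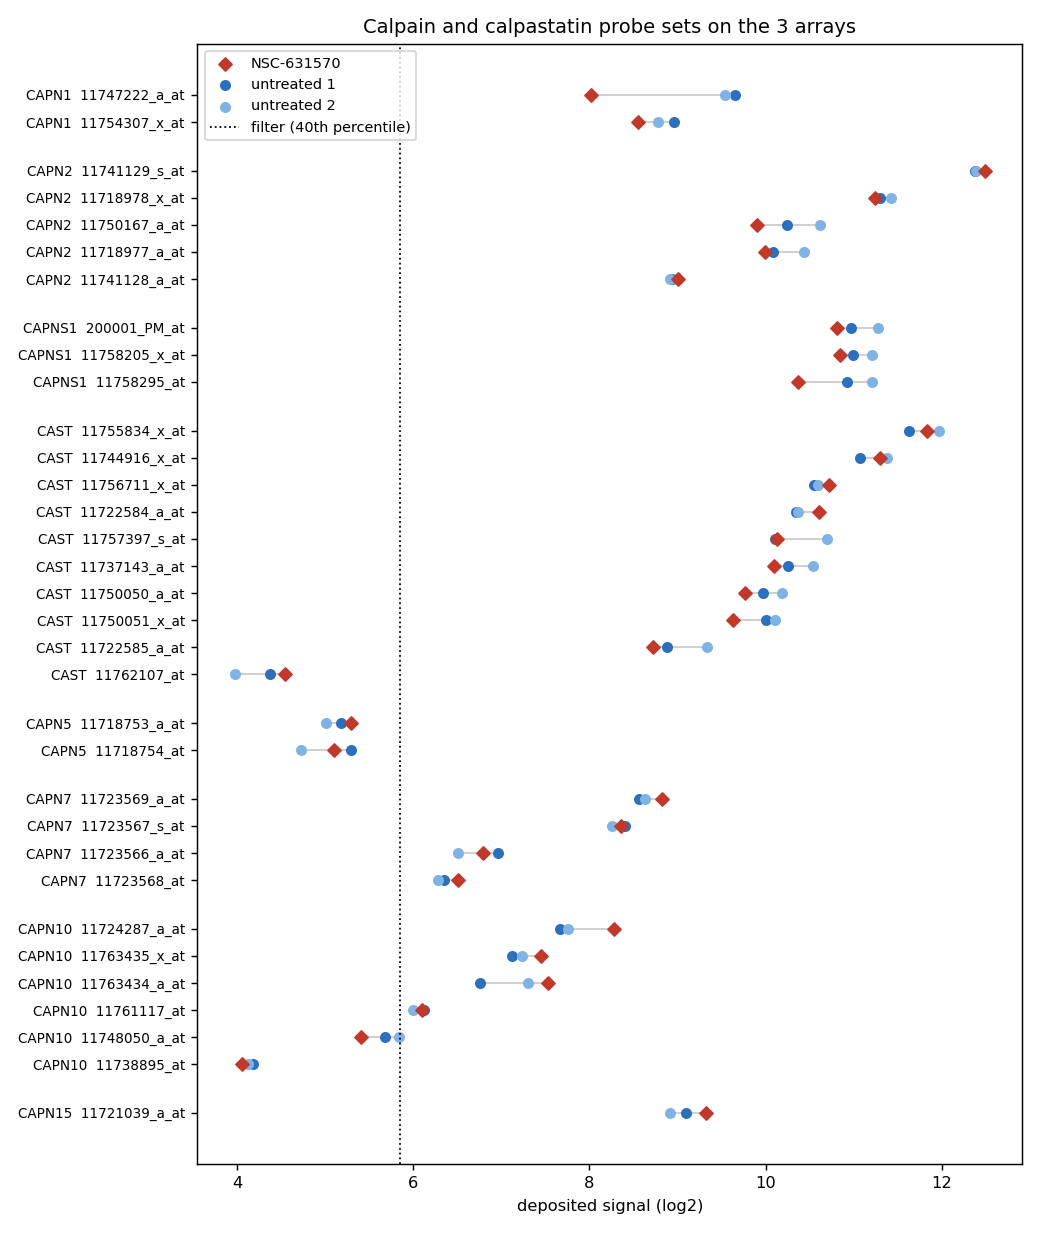
Deposited log2 signal (x axis) of each of the 33 member probe sets (rows, grouped by gene) in the NSC-631570 array (red diamonds) and the untreated arrays (blue circles), with the filter at 5.85 as a dotted line. The widest gap between the treated and the untreated arrays is in the upper CAPN1 set, at 8.02 against 9.65 and 9.54, and both CAPN5 sets lie left of the filter.

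CAPN1, the catalytic subunit of calpain-1, was lower in the treated array on both of its probe sets, by very different amounts. The brighter set, 11747222_a_at, read 8.02 in the treated array, against 9.65 in untreated 1 and 9.54 in untreated 2. The treated value lay far below 2 untreated values that were 0.11 apart, and the set was 2.97-fold lower than their mean (log2 difference −1.57), or 2.86-fold lower than the nearer of them. The second set, 11754307_x_at, read 8.55 in the treated array, against 8.96 and 8.77 in untreated 1 and 2, a difference of −0.32 (1.25-fold lower). Here the distance to the nearer untreated array (−0.22) was about as large as the gap between the untreated arrays (0.19). Averaged over both sets the CAPN1 difference was −0.94.

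A difference of −1.57 or lower was found in 264 of the 27249 probe sets past the filter (0.969%). The differences of the CAPN1 sets lay 1.25 apart, and among 3100 genes with exactly 2 sets past the filter the median of this range was 0.24, with 97 genes (3.13%) at least as wide as CAPN1. The deposited table does not say which stretch of the transcript a set covers, and the annotation gives only the record each was designed on.

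Signals from the 5′ end of transcripts also moved with the treated array, and both CAPN1 sets belong to a class of sets that was often low in it. The 5′ control set of ACTB read 12.23 in the treated array, against 13.61 and 13.60, while its 3′ set read 14.40 against 14.19 and 14.21. For GAPDH the 5′ set read 14.00 against 14.45 and 14.51, and for the ISGF3A control it read 6.44 against 7.38 and 7.37. In all 3 of these controls the 5′ set was below both untreated arrays, by −1.37, −0.48 and −0.94 from their mean, and the 3′ set within 0.20 of it. The middle sets differed by −0.09 for ACTB, −0.20 for GAPDH and −1.20 and −0.34 for ISGF3A. In ISGF3A a middle set thus lay further below its untreated mean than the 5′ set did. The HUMRGE control sets, for a ribosomal RNA, differed by −1.63 at the 5′ end, −1.18 in the middle and −1.41 at the 3′ end.

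**Figure D2:**
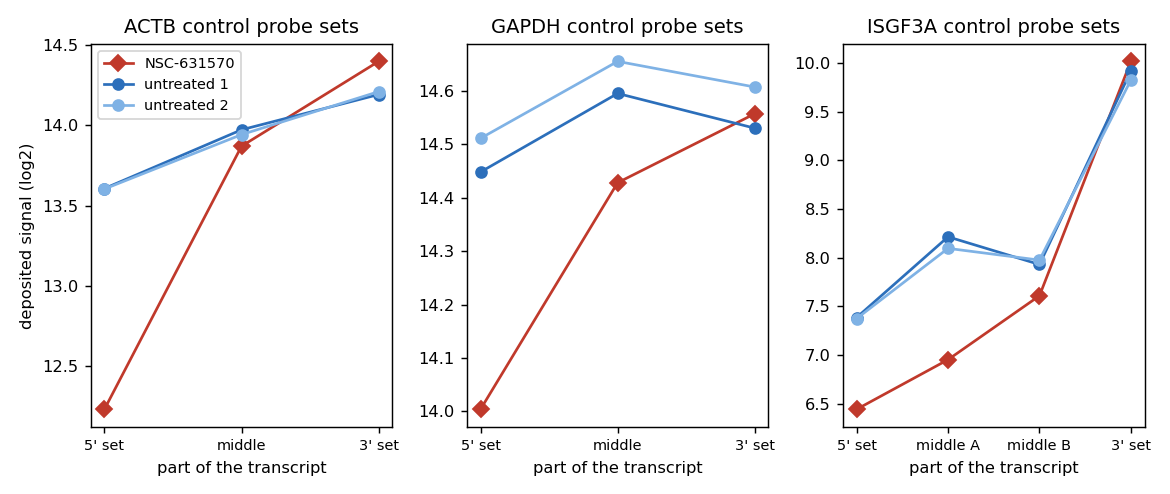
Deposited log2 signal (y axis, a separate scale for each panel) of the ACTB, GAPDH and ISGF3A control probe sets along the transcript (x axis, 5′ to 3′) in the NSC-631570 array (red) and the untreated arrays (blue). The 5′ sets of the treated array lie below both untreated arrays, for ACTB at 12.23 against 13.61 and 13.60, and at the 3′ end the treated array lies above both for ACTB (14.40 against 14.19 and 14.21) and ISGF3A and between them for GAPDH (14.56 against 14.53 and 14.61).

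Both CAPN1 sets were designed on cDNA clone records with the prefix AK. Among 5965 sets of that class past the filter, 14.7% were at least 1.5-fold below both untreated arrays and 2.06% at least 1.5-fold above, with a median difference of −0.12. Among 8422 sets designed on RefSeq mRNA records 1.58% were that far below and 6.66% that far above, with a median of 0.14. Of the 9 member AK sets 5 were below both untreated arrays and 3 above both, and the 7 of them that are not of CAPN1 had a median of 0.04, against 0.10 over the 8 member RefSeq sets. CAPN1 has no set of another class, so its difference and the class of its sets cannot be told apart. The part of the 5′ signal in any member difference was not tested.

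CAPN2, the catalytic subunit of calpain-2, did not share the large CAPN1 difference on any of its 5 sets. The brightest, 11741129_s_at, read 12.49 in the treated array, against 12.37 and 12.38 in untreated 1 and 2, a difference of 0.11. The faintest, 11741128_a_at, read 9.01 against 8.94 and 8.91 (0.09). The treated array was above both untreated arrays in these 2 sets, both designed on RefSeq records, and below both in the other 3. The lowest of those was 11750167_a_at, the CAPN2 set designed on an AK record, with 9.91 in the treated array, against 10.24 and 10.62 (−0.52). The remaining sets, 11718977_a_at and 11718978_x_at, differed by −0.27 and −0.12, and untreated 2 was the higher untreated array in 4 of the 5. After centring the arrays on the tested genes all 5 sets were below both untreated arrays, so the direction of CAPN2 turns with the scaling.

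CAPNS1, the small subunit shared by both classical enzymes, was below both untreated arrays on each of its 3 sets, as deposited and in the 3 other scalings tried. The set 11758295_at read 10.36 in the treated array, against 10.92 and 11.21, a difference of −0.71 (1.63-fold lower). The set 200001_PM_at read 10.81 against 10.97 and 11.28 (−0.31), and 11758205_x_at read 10.84 against 10.99 and 11.20 (−0.25). In all 3 the untreated arrays stood 0.22 to 0.31 apart, with untreated 2 the higher. For the 2 sets with the smaller differences the distance to untreated 1 (−0.16 and −0.14) was therefore smaller than the untreated gap. The range between the CAPNS1 sets, 0.46, was close to the median of 0.44 among 1942 genes with the same number of sets.

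**Figure D3:**
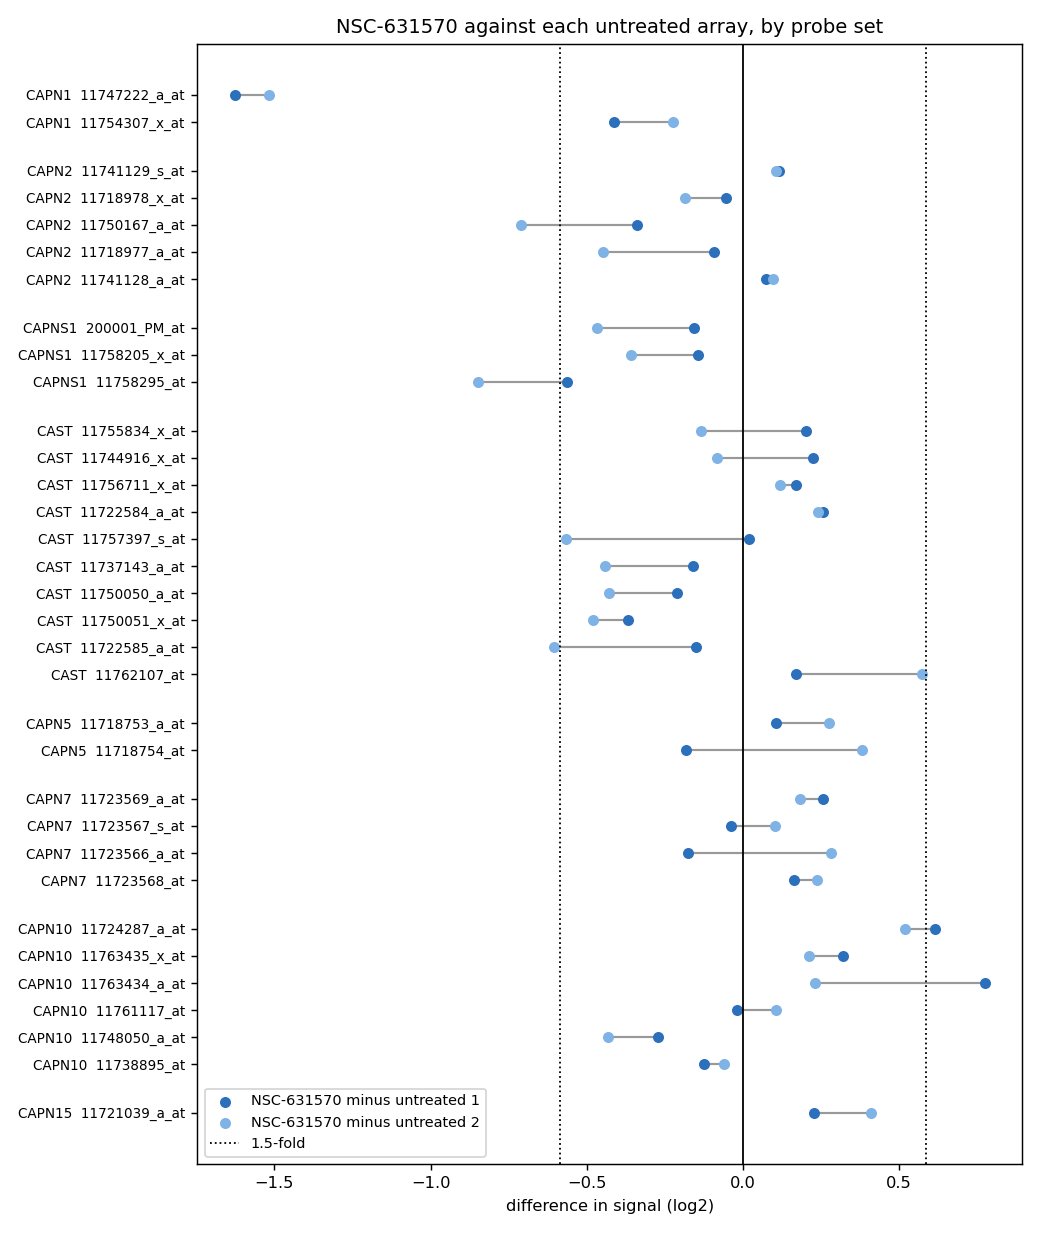
Difference in log2 signal (x axis) of the NSC-631570 array from untreated 1 (dark blue) and from untreated 2 (light blue) for each member probe set (rows), with dotted lines at 1.5-fold. Only the upper CAPN1 set has both points beyond a dotted line, at −1.63 and −1.52, and the CAPNS1 set 11758295_at is next at −0.56 and −0.85.

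CAST, the inhibitor, has 10 sets, and they did not move one way. Of the 9 past the filter, 4 were below both untreated arrays, 2 above both and 3 between them. The sets below both differed by −0.42 (11750051_x_at), −0.38 (11722585_a_at), −0.32 (11750050_a_at) and −0.30 (11737143_a_at). The lowest of them read 9.63 in the treated array, against 10.00 and 10.11 in untreated 1 and 2. Those above both were 11722584_a_at, with 10.60 in the treated array against 10.35 and 10.36 (0.25), and 11756711_x_at, with 10.71 against 10.54 and 10.59 (0.14). On the 2 brightest sets, 11755834_x_at and 11744916_x_at, the treated array lay between the untreated arrays, with differences of 0.03 and 0.07.

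The untreated arrays themselves differed in CAST, and in the same direction on every set past the filter. Untreated 2 was the higher one in 9 of the 9 sets past the filter, and the median gap was 0.28. Over all probe sets past the filter untreated 2 was the higher in 48.3% and the median gap was 0.19. Over the 28 member sets it was the higher in 20. The set 11757397_s_at shows what this does to a difference: it read 10.13 in the treated array, against 10.11 and 10.69, so it was level with one untreated array and −0.57 from the other. CAST is known to be made as several splice forms, but the deposited table does not tie sets to forms. Its range between sets, 0.67, was below the median of 0.92 among 24 genes with as many sets.

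CAPN10 was the member with the largest differences upward. Its brightest set, 11724287_a_at, read 8.28 in the treated array, against 7.66 and 7.76 in untreated 1 and 2, 1.48-fold above their mean (0.57). The treated value lay 0.52 above untreated arrays that were 0.10 apart, just short of the 1.5-fold mark of 0.58. The sets 11763434_a_at, at 7.53 against 6.76 and 7.30 (0.50), and 11763435_x_at, at 7.44 against 7.12 and 7.23 (0.27), were above both as well, and both were designed on an AK record. The fourth set past the filter, 11761117_at, differed by 0.04. Of the 2 below the filter, 11748050_a_at differed by −0.35 and 11738895_at by −0.09, and a set shared with GPR35, which was not counted, by 0.22.

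CAPN15 has 1 set, which read 9.32 in the treated array, against 9.09 and 8.91 (0.32). CAPN7, which binds ESCRT-III proteins through its MIT domains, differed little on any of its 4 sets (0.03 to 0.22), with the treated array above both untreated arrays in 2 and between them in 2. Its brightest set, 11723569_a_at, read 8.82 against 8.56 and 8.63. CAPN5 lay below the filter on both sets, with 5.29 against 5.18 and 5.01, and 5.11 against 5.29 and 4.73, and no direction is given for it. Together the non-classical genes CAPN7, CAPN10 and CAPN15 had 6 of 9 sets past the filter above both untreated arrays and 0 below both, and CAPN1, CAPN2 and CAPNS1 had 2 of 10 above both and 8 below both, where 40.7% of all sets were above both and 34.5% below both. The 2 CAPN10 sets under the filter were left out of this count and were both below both untreated arrays. After centring the arrays on the tested genes the non-classical sets were 4 above both and 2 below both and the classical sets 0 above both and 10 below both. That centring also lowered the median difference of all tested genes, from 0.12 to −0.08. The shares of all sets above and below both were not counted in that scaling.

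**Figure D4:**
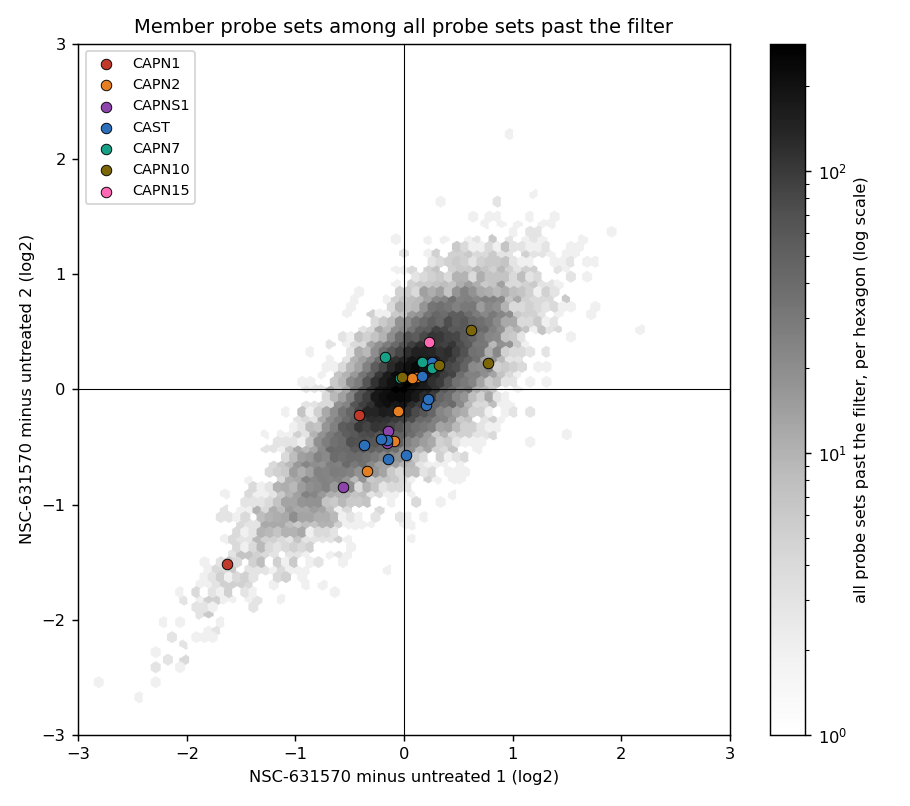
Difference of the NSC-631570 array from untreated 1 (x axis) and from untreated 2 (y axis), both log2, for the 28 member probe sets past the filter (coloured by gene) over all 27249 sets (grey hexagons, darker for more sets, 15 sets beyond 3 not shown). One CAPN1 set lies at −1.63 and −1.52 in the lower tail, and the other member sets lie within the main cloud.

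By Euclidean distance between these paired differences, the tested genes nearest to CAPN1 on their brightest sets were SLC39A7, a zinc transporter gene (8.38 in the treated array, against 9.82 and 9.94), REL, an NF-kB subunit gene (6.26, against 8.09 and 7.79), and RASAL2, a Ras GTPase-activating protein gene (6.62, against 8.44 and 8.17). The distances were 0.20, 0.20 and 0.21 on the log2 scale. Likeness over 3 arrays is weak, and other sets of the same genes gave medians of −0.99, −1.93 and −0.23.

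The calpain family genes outside the 8 were faint on most sets, in a range that also held sets of CAPN5, CAPN7 and CAPN10. All 10 of these outside genes were named, by 15 probe sets, and 3 sets passed the filter. CAPNS2, a relative of the small subunit gene, read 7.01 in the treated array, against 7.13 and 7.30 (−0.21). CAPN3, the muscle calpain gene, read 6.26 against 6.25 and 5.91 (0.18), and CAPN13 read 6.84 against 6.92 and 6.77 (−0.01). Over all 15 sets the differences ran from −0.27 to 0.43, and 0 were 1.5-fold outside both untreated arrays, where 7.47% of all 44988 sets naming 1 gene were, with no filter.

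Genes around the calpains were compared gene by gene with limma and Benjamini-Hochberg adjustment, each gene by its brightest probe set past the filter. None of the 75 genes tested from the 7 lists passed, where 8 of 11932 genes tested (0.067%) did, 5 higher and 3 lower (0.0419% and 0.0251%). The brightest sets as a whole stood 0.12 above the untreated mean, and 51.6% of genes were above both untreated arrays and 22.5% below both. At an unadjusted p under 0.05 limma counted 1453 of all genes higher (12.2%) and 267 lower (2.24%), and the list counts below are given beside these.

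The genes of calcium entry, release and export had a list median of 0.31 (0.12 over all genes). Of 16 tested, 13 were above both untreated arrays and 2 below both. At the unadjusted level 4 were higher and 0 lower, a count that rests on 1 treated array and on a list chosen with earlier results known and that gives the list no support. After centring the arrays on the tested genes 9 were above both, 5 below both and the median was 0.11. Here and for the lists below, the shares of all genes above and below both were not counted after that centring. ATP2B4, a calcium pump of the plasma membrane, read 9.17 in the treated array, against 7.66 and 8.11, 2.44-fold above the untreated mean (log2 difference 1.28 ± 0.25, SE, limma adjusted p = 0.112). Its other probe set differed by 0.24. TRPC1, a cation channel, read 7.78 against 6.69 and 6.81 (1.03, adjusted p = 0.127 by limma), and ORAI3, a store-operated channel subunit, 8.31 against 7.59 and 7.52 (0.75, adjusted p = 0.182 by limma), with 0.07 on its other set.

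Among calpain substrates of the cytoskeleton and adhesion, 14 tested genes had a median of 0.13, close to all genes, with 8 above both untreated arrays and 2 below both, turning to 1 and 7 (median −0.07) after centring on the tested genes. These counts hold for the brightest set of each gene. Among the 13 genes with other sets past the filter, the median of those was below 0 in 11. It was 0.02 for ACTN1 and 0.04 for ITGB1. Of the 13 genes, 9 had another set at least 1.5-fold below the untreated mean. The shares of all genes with such sets were not counted, so these counts are not read as particular to the list. The other sets of CTTN (cortactin) ran from −2.32 to −0.39, those of PXN (paxillin) from −1.84 to 0.13 and those of CTNNB1 (beta-catenin) from −1.93 to −1.13, and the other set of CDH1 (E-cadherin) differed by −1.33, all 4 genes named after their values were seen. SPTAN1, the spectrin whose calpain fragments are a standard readout of the protease, read 6.69 against 6.27 and 5.99 (0.57, the 1 gene of the list below an unadjusted p of 0.05). ITGB1, an integrin subunit gene, read 12.97 against 12.51 and 12.91, 0.06 above untreated arrays that were 0.40 apart. PTK2, the focal adhesion kinase gene, read 10.83 against 10.46 and 10.67 (0.26), and its 2 other sets differed by −0.57 and −0.28. Substrates of signalling, autophagy and cell death had a median of −0.10 over 12 tested genes, with 5 above both untreated arrays and 6 below both, which became 2 and 8 (median −0.30) after centring on the tested genes. PRKCA, a protein kinase C gene, read 7.32 against 7.05 and 6.31 (0.64), with an untreated gap of 0.75 that exceeds the difference, and −0.33 on its other set. NFKBIA, the NF-kB inhibitor gene, read 11.22 against 11.72 and 11.99 (−0.64) and CASP8, the initiator caspase gene, 6.63 against 7.40 and 7.09 (−0.62), both below an unadjusted p of 0.05, and their other sets had medians of −0.73 and −0.65.

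**Figure D5:**
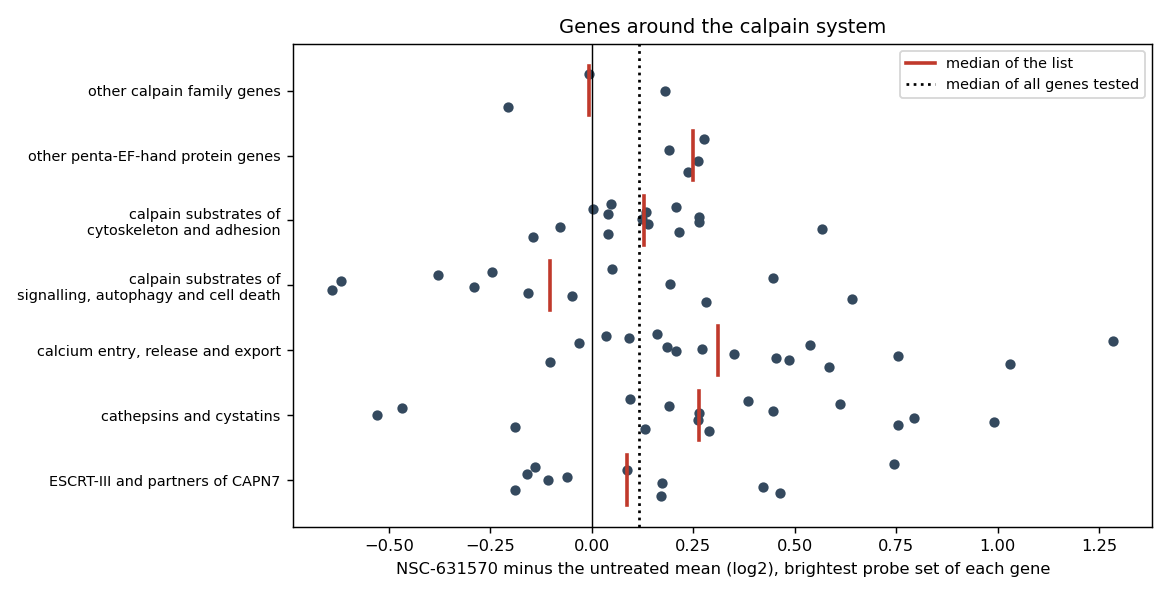
Log2 difference of the NSC-631570 array from the untreated mean (x axis) for each tested gene (points) of the 7 lists (rows), by its brightest probe set, with the median of each list (red) and of all genes tested (dotted, 0.12). The list medians run from −0.10 for the signalling and cell death substrates to 0.31 for the calcium genes, and the highest point is ATP2B4 at 1.28.

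The other penta-EF-hand genes, which share the calcium-binding fold of the classical subunits, stood above both untreated arrays as deposited, 4 of 4, but 2 of 4 after centring on the tested genes: GCA (0.28), PEF1 (0.26), SRI (0.24) and PDCD6 (0.19). The median of these 4 was 0.25, none was below an unadjusted p of 0.05, and the other sets of PEF1 had a median of −0.63. Cathepsins, cystatins and legumain, the lysosomal protease system set beside the calpains, had a median of 0.26 over 15 tested genes, 12 above both and 3 below both, with 3 higher and 0 lower at the unadjusted level. After centring on the tested genes these became 6 above both and 5 below both (median 0.07). CTSL read 10.62 against 9.21 and 10.05 (0.99), CTSH 9.83 against 8.80 and 9.29 (0.79) and CTSS 7.22 against 6.90 and 6.03 (0.76), and the untreated arrays were 0.49 to 0.87 apart in these genes. CTSS was not among the 3 below an unadjusted p of 0.05. These were CTSL, CTSH and CSTA, the cystatin A gene, which was named after its values were seen and read 13.11 against 12.41 and 12.58 (0.61).

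ESCRT-III genes and partners of CAPN7 had a median of 0.09 over 11 tested genes, with 5 above both untreated arrays and 2 below both, and 1 higher at the unadjusted level. That median also turned sign, to −0.11, after centring on the tested genes. CHMP1A read 11.38 against 10.63 and 10.64 (0.74), while its 4 other sets ran from −1.62 to 0.78 with a median of 0.53. VPS4A, the ATPase that disassembles ESCRT-III, differed by 0.46, and CHMP6 by 0.42, with −0.32 on its other set. IST1, a CAPN7-binding protein gene named after its values were seen, differed by −0.19 on its brightest set, while its 6 other sets ran from −2.47 to −0.80. 

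Over the whole array, the medians of all probe sets were 6.55 in the treated array and 6.62 and 6.57 in the untreated arrays. Over the tested genes the order was the other way, with medians of 8.82 in the treated array and 8.61 and 8.63 in untreated 1 and 2. Of 7 squamous epithelial markers 5 were named here and all 5 were past the filter in a range of 9.46 to 13.96. Their medians, 12.03 in the treated array and 11.89 and 11.77 in the untreated arrays, are the CDH1 values. KRT14 (11.49 against 10.74 and 10.35) and SFN (13.96 against 13.43 and 13.48) were also above both untreated arrays. KRT5 was below both (12.91 against 13.21 and 13.39), and DSG3 lay between them. Fibroblast markers ran from 3.50 to 6.21 (2 of 6 past the filter), leukocyte markers from 3.71 to 7.42 (2 of 4 named) and endothelial markers from 6.37 to 7.79 (3 of 3). The treated medians of these lists were 4.89, 5.03 and 6.63, against 5.17, 5.01 and 6.62 in untreated 1 and 4.79, 4.84 and 6.54 in untreated 2, and their part in the member values was not tested. All arrays are of the FaDu line, so the fibroblast, leukocyte and endothelial marker signals are not read as cells of those types. Fewer FaDu cells in a given state and less RNA per cell cannot be told apart in such bulk samples.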

How the data were processed

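RNA of FaDu cells was measured on 3 PrimeView arrays, 1 after 48 h with NSC-631570 at 10 µg/ml and 2 untreated. Per the labels' protocols, 100 ng of total RNA were amplified and labelled with biotin. The authors deposited 1 log2 signal for each probe set and array, computed in Affymetrix Expression Console per the submitters' processing notes. Its algorithm and any normalization between arrays are not given in the sources used. The scale was read from the values. They were used as deposited. The number of arrays limits the precision.

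Of 49395 probe sets, 102 are controls, 44988 named 1 gene in the platform annotation, 1832 several and 2473 none here. Symbols were updated through RefSeq gene identifiers. The filter was the 40th percentile of mean signals (5.85).

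The members, the gene lists and the rule for naming genes (up to 3 per list, by size of the log2 difference) were chosen with earlier results of these data known. List genes were tested with limma (version 3.58.1, R version 4.3.3) at a threshold of 0.05, 1 value a gene from its brightest probe set. The 2 untreated arrays give the 1 residual degree of freedom, moderated with 6.9 prior degrees of freedom, and the treated array's spread is taken to equal theirs. On simulated arrays of 11932 genes, the fit recovered 35 of 50 genes changed 2-fold and all 50 changed 4-fold. It also called 64 unchanged genes, so its adjusted p-values may be too small. The simulated arrays also held 50 genes changed 8-fold and 50 changed 16-fold, a share of changed genes that was not taken from the data. The adjusted threshold depends on that share, so the recovery at 2-fold cannot be carried over to the list genes. In the data TRPC1, 2.04-fold above the untreated mean, did not pass. Other scalings, filters, gene values and folds, probe sets one by one, an intensity trend and leaving out each untreated array were tried.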

Additional observations from a re-analysis of the deposited data

How the results depend on the processing

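On its brightest set CAPN1 was lower in every alternative run: −1.60 after quantile normalization, −1.53 with a common median over all probe sets, −1.77 after centring on the tested genes (an alternative chosen after seeing the data), −1.63 to −1.52 leaving out an untreated array, and −0.94 as the mean of its sets. Among the other members' brightest sets, 17 of 27 values moved by less than the untreated SD, 7 moved by more with no change of sign and 3 changed sign beyond it: CAPN2 after centring on the tested genes (−0.085) and as the mean of its sets (−0.14), and CAPN5 after centring on the tested genes (−0.0064). Among the 17, CAST also changed sign, within its untreated SD of 0.24. It went from 0.03 to −0.16 after that centring and to −0.13 as the mean of its sets. Leaving out an untreated array is not among these 27, because with 2 arrays it always moves the difference by less than their SD. The mean of the sets of CAPN15 is counted among the 17 but could not differ, because CAPN15 has 1 set. The 12 member sets below both untreated arrays became 19 after centring on the tested genes, 11 to 14 under the other scalings and without a filter, and 15 without either untreated array. The share of all probe sets below both was not counted under the other scalings or after the centring. The 1 set at least 1.5-fold outside both became 2 after quantile normalization and after centring on the tested genes, and 3 to 4 leaving out an untreated array, where 1 array stands against 1. The 8 genes past the limma threshold became 4 after quantile normalization, 136 with a common median over all probe sets, 50 after centring on the tested genes, 4 without a filter, 21 with a 60th percentile filter, 31 with an intensity trend and 799 (151 higher, 648 lower) with probe sets one by one. List genes passed in 2 of these: 1 (ATP2B4) with the common median over all probe sets and 10 with probe sets one by one, of which 1 (ATP2B4) was higher and 9 lower (ACTN1, CDH1, CHMP1A, CTNNB1, CTTN, EGFR, IST1, PPP3CA and PXN). With probe sets one by one, the count over the whole array is of probe sets, of 27249 tested, and the list count is of genes. Most of the sets passing over the whole array were lower too. The share of all genes with such a set was not counted, so the list count is not read as particular to these lists. The causes of these shifts were not tested. The median difference of the tested genes was −0.08 after centring on them and 0.12 as deposited. Without an untreated array limma has no residual degree of freedom and was not run. No paired analysis was possible because the labels give the treated array no replicate number. Detection over background could not be judged for any gene.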
